A study of Mus musculus with 36 samples.

Results

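Cxcl9, Cxcl10 and Cxcl11 are the genes of the 3 chemokines that bind the receptor CXCR3, and their RNA was followed on all 36 arrays of a mouse study of Usp18. Every probe set annotated with one of the 3 symbols was taken, which gave 4 probe sets for 3 genes of the 12394 genes on the array that have a probe set of their own. Primary mouse microglia came from wild-type mice (WT), Usp18 knockout mice (KO) or mice that carry Usp18_C61A, in which the catalytic cysteine of the enzyme is replaced. Cells of BV-2, an immortalised mouse microglial line, received a control siRNA or a siRNA against Usp18. Cells were left untreated or were given 500 U/ml interferon-beta (IFN-b) for 6 h or 24 h. No strain, sex or age of the mice is named in the labels, nor whether animals were pooled, and BV-2 is 1 line. The WT arrays were deposited in 2 sets, one beside the KO arrays (run 1) and one beside the C61A arrays (run 3), with the BV-2 arrays between them (run 2). The runs are known from deposition order alone, and what they were in the laboratory is not stated. Counted by run, the arrays fell into 18 groups of 2 labelled biological replicates.

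CXCR3 sits mainly on activated T cells and natural killer cells, and its ligands draw these cells into inflamed tissue, the brain included, where microglia and astrocytes are known sources. Interferon-beta binds IFNAR1 and IFNAR2 and acts through JAK1 and TYK2 on a complex that holds STAT2 and IRF9, which binds interferon-stimulated response elements in DNA. Interferon-gamma has a receptor of its own and acts on gamma-activated sites, and Cxcl9 is the ligand best known as its target. USP18 removes the ubiquitin-like protein ISG15 from its targets, and it also binds IFNAR2 and damps the receptor, a function that does not need its enzyme activity.

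The genes are neighbours on mouse chromosome 5 (RefSeq, GRCm38.p6): Cxcl9 spans 92321331 to 92328079, Cxcl10 92346638 to 92348889 and Cxcl11 92359544 to 92363296. RefSeq lists Cxcl9 and Cxcl10 as protein coding and Cxcl11 as a transcribed pseudogene, which refers to the C57BL/6J reference, where the reading frame is known to be broken. The array reads its RNA all the same. Since the ligand genes are compared here by how they moved together, the stretch from 250 bases before to 50 bases after the RefSeq start is shown for the 2 genes present in the promoter table, written 5' to 3' on the strand of the gene, with matches to the motifs below in capitals. Cxcl9 lies at chr5:92328030-92328329 and Cxcl10 at chr5:92348840-92349139, both on the minus strand.
Cxcl9: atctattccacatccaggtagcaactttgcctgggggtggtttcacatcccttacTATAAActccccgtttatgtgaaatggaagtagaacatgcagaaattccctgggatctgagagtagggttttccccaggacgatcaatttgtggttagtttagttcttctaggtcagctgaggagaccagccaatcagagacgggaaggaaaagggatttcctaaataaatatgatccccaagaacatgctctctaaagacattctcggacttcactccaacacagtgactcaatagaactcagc
Cxcl10: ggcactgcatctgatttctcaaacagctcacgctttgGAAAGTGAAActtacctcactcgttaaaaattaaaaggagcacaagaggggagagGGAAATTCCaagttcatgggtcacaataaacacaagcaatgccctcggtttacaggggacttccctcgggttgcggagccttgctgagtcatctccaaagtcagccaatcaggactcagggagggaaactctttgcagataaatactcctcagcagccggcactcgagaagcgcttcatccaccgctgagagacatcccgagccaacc
The capitals in Cxcl10 mark GAAAGTGAAA, 213 to 204 bases before the start, and GGAAATTCC, 158 to 150 bases before it. The first is a match to the core of an interferon-stimulated response element, searched on both strands as GAAA, any 2 bases, GAAA, and 3.44% of 32851 promoter windows of the same length hold it. The second matches GGANNTTCC, letters of an NF-kB site that are the same on both strands, and 4.26% of the windows hold those. In Cxcl9 the capitals mark TATAAA, 195 to 190 bases before the start, which 13.6% of windows hold. The gamma-activated site (TTCNNNGAA, in 8.3% of windows) had no match in either window. Matches to different motifs did not overlap. A match is a description of the letters, not a measured binding site.

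Values are deposited intensities on what their range (1.664 to 14.031) shows to be a log2 scale. Array medians ran from 5.594 to 5.827 and mark the middle of each array. A gene was tested where it exceeded the array median on 2 or more arrays of the fit, with limma on all genes that passed (7960 in microglia, 7163 in BV-2) and Benjamini-Hochberg adjustment over all of them. Rose and fell are used for an adjusted p under 0.05. Cxcl9 lay above the array median on 17 of 24 microglial arrays and on 1 of 12 BV-2 arrays, so it was not tested in BV-2. Cxcl10 did so on 22 and 9 arrays, and Cxcl11 on 20 and 3. Each KO or C61A value is compared with WT of its own run.

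Usp18 itself was read at 3.77 to 6.42 on the 6 KO arrays and at 5.68 to 12.56 on the WT arrays of run 1. In BV-2 it was read at 7.92 to 12.49 with Usp18 siRNA and 8.38 to 12.15 with control siRNA. These ranges pool untreated and treated arrays, so they do not show whether the siRNA lowered Usp18 RNA at a given time. At 24 h no fall of Usp18 was called. Of the 17 interferon signalling genes tested, Usp18 among them, 0 were lower with Usp18 siRNA than with control siRNA. Over all genes tested, 163 of 7163 were called lower in that comparison. On 3 arrays, reads of other genes set them apart from their replicate. Untreated WT replicate 1 of run 3 held Usp18, an interferon-induced gene, at 12.97 against 9.31 in its replicate. C61A 6 h replicate 2 held Usp18 at 10.71 against 13.04, and Ctsk, an osteoclast protease, at 12.39 against 4.49 to 9.45 on the other arrays of the run. Usp18 siRNA 6 h replicate 2 held C1qa, a microglial complement gene, at 9.96 against 3.54 to 5.1 on the other BV-2 arrays. Results whose calls, direction or size turn on these 3 arrays are given with and without them. All microglial groups share an estimate of the spread. Leaving out arrays picked for standing apart lowered it for the ligand genes, so calls gained that way are not independent evidence. The microglial markers had a mean level of 9.17 to 10.65 over 9 genes in the primary cells and of 6.03 to 9.31 in BV-2, with C1qa near the bottom of the scale on all BV-2 arrays but that one. T cell and natural killer cell markers lay at a mean of 3.36 to 4.12, and 0 of 6 were above the array median on any array.

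**Figure D1:**
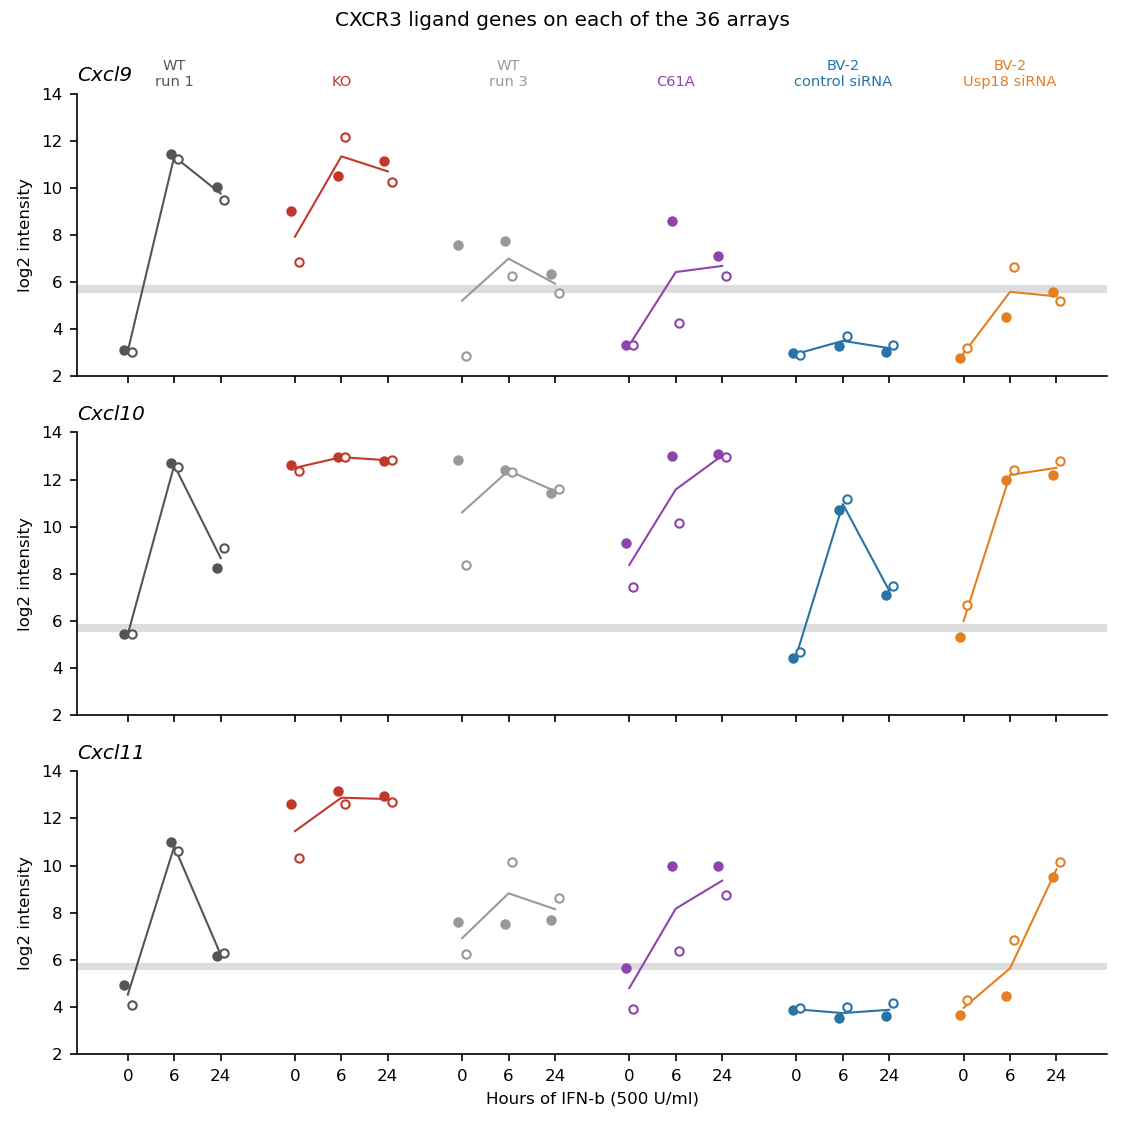
Log2 intensity of Cxcl9, Cxcl10 and Cxcl11 on each array against hours of IFN-b, by genotype or siRNA and run. Filled points are replicate 1, open points replicate 2, lines join group means, and the grey band spans the array medians (5.594 to 5.827). In KO microglia Cxcl10 stayed between 12.37 and 12.95 at all 3 times, while in WT of run 1 it went from 5.43 and 5.45 to 12.7 and 12.53 and back to 8.24 and 9.1.

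IFN-b raised all 3 ligand genes in WT microglia after 6 h. In run 1, Cxcl9 was read at 3.14 and 3.02 untreated, at 11.44 and 11.21 after 6 h and at 10.05 and 9.48 after 24 h. In run 3 it was read at 7.58 and 2.87, then at 7.73 and 6.26, then at 6.35 and 5.53. The run 1 arrays were thus low, high and high with no overlap between untreated and treated, whereas in run 3 the first untreated array lay as high as the treated ones. Over both runs the rise at 6 h was 5.01 ± 0.952 on the log2 scale (SE, limma, 4 arrays a time, adjusted p = 0.00548).

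Cxcl10 stood in WT of run 1 at 5.43 and 5.45 untreated, at 12.7 and 12.53 after 6 h and at 8.24 and 9.1 after 24 h. The 24 h arrays lay between the untreated and the 6 h arrays. In run 3 it read 12.85 and 8.38 untreated, 12.41 and 12.34 after 6 h and 11.44 and 11.58 after 24 h, so that the first untreated array was the highest of the 6. The rise at 6 h was 4.47 ± 0.748 (adjusted p = 0.00302).

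Cxcl11 followed in run 1 with 4.95 and 4.1 untreated, 11.01 and 10.61 after 6 h, and 6.17 and 6.27 after 24 h. In run 3 its arrays read 7.59 and 6.25, then 7.5 and 10.13, then 7.68 and 8.62, and 1 of the 6 h arrays did not leave the untreated range. The rise at 6 h was 4.09 ± 0.76 (adjusted p = 0.00509). All 3 ligand genes thus passed in a comparison in which 7.59% of all genes tested were called higher and the median gene changed by -0.119.

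By run, the 6 h change was 8.25 in run 1 against 1.77 in run 3 for Cxcl9, 7.18 against 1.76 for Cxcl10 and 6.29 against 1.89 for Cxcl11. The differences between runs of 6.47, 5.41 and 4.39 did not pass (limma, adjusted p = 0.109, 0.0918 and 0.162), in a comparison with 0.791% of genes called. They passed for all 3 genes once each culture was followed as its own block (adjusted p = 0.0307, 0.0293 and 0.038). With the 3 doubted arrays left out, the differences were smaller, at 4.12 for Cxcl9, 3.18 for Cxcl10 and 3.72 for Cxcl11. In run 3 alone the 6 h change passed for none of the 3 genes (adjusted p = 0.997 for each), and without a term for the run the adjusted p was 0.0716, 0.0716 and 0.0567. Without the 3 arrays named above, the rises were 6.19 for Cxcl9, 5.59 for Cxcl10 and 4.42 for Cxcl11 (adjusted p = 3.44e-06, 1.23e-07 and 0.000468). Astrocyte markers had a mean level of 4.5 to 5.27 in WT of run 1 and of 5.35 to 8.49 in WT of run 3. Of the marker lists, 0 of 9 microglial and 0 of 7 astrocyte markers passed in WT at 6 h, and the endothelial gene Cdh5 rose by 0.85. The part of these markers in the ligand values was not tested.

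After 24 h none of the ligand genes passed over both runs. The change from untreated was 3.7 for Cxcl9, 2.06 for Cxcl10 and 1.46 for Cxcl11 (limma, adjusted p = 0.0533, 0.161 and 0.331), with 2.59% of genes called in either direction. In WT the replicate numbers were taken to mark cultures followed over time, and with culture as a replicate block Cxcl9 and Cxcl10 passed (adjusted p = 0.00793 and 0.0422). In run 1 alone the 24 h changes were 6.68 for Cxcl9, 3.23 for Cxcl10 and 1.7 for Cxcl11, and those of Cxcl9 and Cxcl10 passed (adjusted p = 0.000631 and 7.97e-05). They also passed without the 3 arrays, at 4.87 and 3.18. The run difference at 24 h was 5.97, 2.33 and 0.47 (adjusted p = 0.553, 0.876 and 0.993), where 0% of genes were called by limma and 501 had an unadjusted p under 0.05. With the 3 doubted arrays left out it was 3.62, 0.1 and -0.2.

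From 6 h to 24 h the WT levels moved by -1.31 for Cxcl9, -2.41 for Cxcl10 and -2.63 for Cxcl11 (adjusted p = 0.455, 0.0722 and 0.0561), with 5.45% of genes called. Cxcl10 and Cxcl11 fell past the threshold with culture as a replicate block (adjusted p = 0.0258 and 0.0121), in run 1 alone, at -3.95 and -4.59 (adjusted p = 0.000725 and 0.00333), and without the 3 arrays (adjusted p = 0.000659 and 0.015). Cxcl9 did not pass in those fits. In run 3 the corresponding moves were -1.06, -0.87 and -0.67.

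Without any IFN-b, KO microglia already carried high levels of the ligand RNAs. Cxcl10 was read at 12.63 and 12.37 on the untreated KO arrays against 5.43 and 5.45 in WT, a difference of 7.06 ± 1.06 (SE, limma, adjusted p = 0.000984), or 134-fold on the array's scale. Cxcl11 stood at 12.6 and 10.32 against 4.95 and 4.1, a difference of 6.94 ± 1.07 or 122-fold (adjusted p = 0.00125). Cxcl9 stood at 9.01 and 6.84 against 3.14 and 3.02, a difference of 4.85 ± 1.35 or 28.8-fold (adjusted p = 0.026). Both KO arrays lay above both WT arrays of run 1 for each of the 3 genes. Such an order can arise without a difference where groups hold so few arrays. The share of all genes that show it was not counted. All 3 ligand genes passed the limma test, where 8% of genes were called higher and the median gene differed by -0.096.

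The untreated WT levels of run 1 lay under every array's median for all 3 genes. Those of Cxcl9 (3.14 and 3.02) and Cxcl11 (4.95 and 4.1) were low, and those of Cxcl10 (5.43 and 5.45) lay just under the medians. The size of the folds is uncertain, above all where the WT level was low. The call on Cxcl9 was lost without KO replicate 1 (3.76, adjusted p = 0.241), without WT replicate 1 (adjusted p = 0.105) or without WT replicate 2 (adjusted p = 0.124). It was also lost with the run as an additive term (2.77, adjusted p = 0.296). Cxcl10 and Cxcl11 kept their calls with each of the 4 arrays left out in turn, at 6.93 to 7.19 and at 5.79 to 8.08. Without a term for the run, the WT arrays of both runs are pooled, and Cxcl10 differed by 4.47 (adjusted p = 0.0967).

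**Figure D2:**
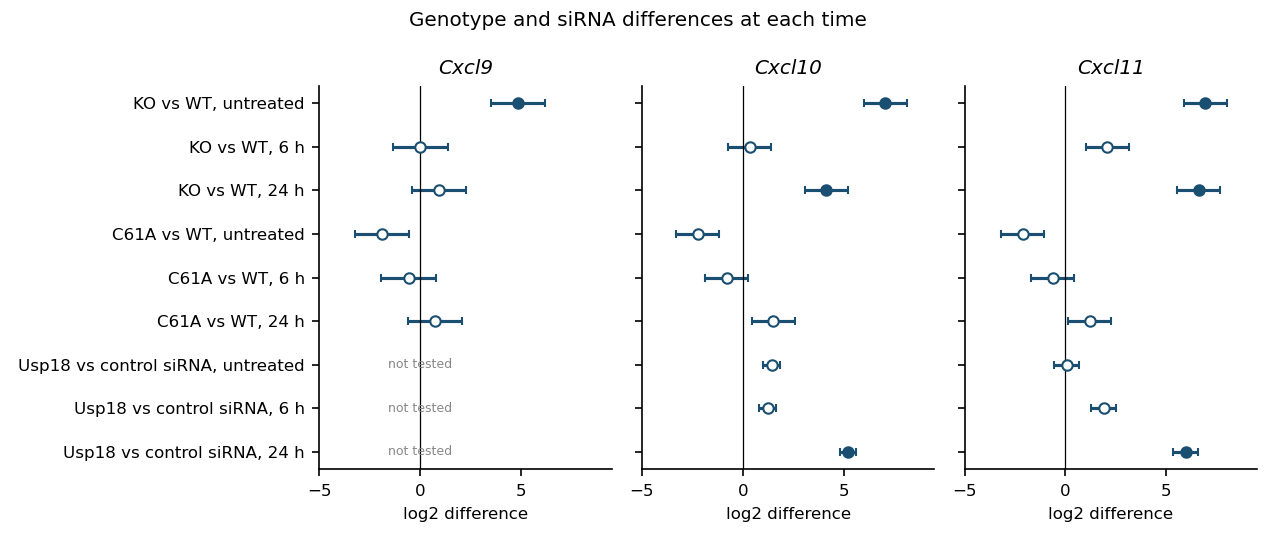
Log2 difference of KO and C61A from WT of their own run, and of Usp18 siRNA from control siRNA, at each time, with standard error bars and filled points past an adjusted p of 0.05 (limma). KO stood higher for all 3 genes untreated and for Cxcl10 and Cxcl11 at 24 h, Usp18 siRNA stood higher for Cxcl10 and Cxcl11 at 24 h, and no C61A difference passed.

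After 6 h of IFN-b no ligand gene differed between KO and WT past the threshold. KO read 10.52 and 12.16 for Cxcl9, 12.95 and 12.95 for Cxcl10 and 13.16 and 12.61 for Cxcl11. The differences from WT were 0.01 for Cxcl9 (95% interval -2.86 to 2.89), 0.34 for Cxcl10 (-1.92 to 2.6) and 2.08 for Cxcl11 (-0.22 to 4.37), with limma adjusted p-values of 0.997, 0.891 and 0.254. None of the ligand genes passed in a comparison with 8.32% of genes called. For Cxcl10 and Cxcl11 both KO arrays lay above both WT arrays. With 2 arrays a group such an order can arise without a difference, and the share of all genes that show it was not counted.

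At 24 h the genotypes had parted again for Cxcl10 and Cxcl11. KO read 12.81 and 12.83 for Cxcl10 against 8.24 and 9.1 in WT, a difference of 4.15 ± 1.06 or 17.8-fold (limma, adjusted p = 0.0102). Cxcl11 read 12.94 and 12.7 against 6.17 and 6.27, a difference of 6.6 ± 1.07 or 97.1-fold (adjusted p = 0.000765). Cxcl9 read 11.13 and 10.26 against 10.05 and 9.48, where the arrays did not overlap but the difference of 0.93 did not pass (95% interval -1.94 to 3.81, adjusted p = 0.641). At 24 h 11.3% of genes were called higher in KO and the median gene differed by -0.072. The Cxcl10 call was lost without KO replicate 1 (adjusted p = 0.057) or WT replicate 1 (3.72, adjusted p = 0.0769), and without a term for the run (2.73, adjusted p = 0.213), while the Cxcl11 call was kept in all of these fits.

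Within KO microglia, none of the ligand genes passed the threshold after IFN-b in the fit without blocks. Cxcl10 changed by 0.45 at 6 h (95% interval -1.81 to 2.71) and by 0.32 at 24 h (-1.94 to 2.58). Cxcl11 changed by 1.42 and 1.36, and Cxcl9 by 3.41 and 2.77 (limma, adjusted p = 0.121 and 0.241). The shares of genes called in KO were 8.45% at 6 h, 3.97% at 24 h and 3.67% between 6 h and 24 h, where the ligand genes moved by -0.64 for Cxcl9, -0.13 for Cxcl10 and -0.06 for Cxcl11. The 6 h change of Cxcl9 passed with culture as a replicate block (adjusted p = 0.0414) and when run 1 was fitted alone (adjusted p = 0.021). None of the 3 arrays named above is a KO array. Without them the Cxcl9 changes stayed at 3.41 and 2.77, while their SE went from 1.35 to 0.693. Cxcl9 then passed at both times, through the smaller shared spread and not through other KO values.

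The response of KO was also set against the response of WT in run 1. KO started from raised levels, for Cxcl10 at 12.63 and 12.37 where no array of the study exceeded 13.1, so a small KO change there cannot be told apart from a lack of room on the scale. At 6 h the difference was -6.72 ± 1.5 for Cxcl10 (limma, adjusted p = 0.046), -4.86 for Cxcl11 (0.148) and -4.83 for Cxcl9 (0.263), with 0.854% of genes called lower. The Cxcl10 call was lost when any 1 of its 8 arrays was left out (adjusted p up to 0.18) and with no filter on low values (adjusted p = 0.059), and all 3 genes passed when run 1 was fitted alone. At 24 h the differences were -3.91 for Cxcl9, -2.91 for Cxcl10 and -0.33 for Cxcl11 (adjusted p = 0.393, 0.422 and 0.963), with 0.716% called. The file does not mark saturated probe sets, and the highest value of the whole table was 14.031.

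Markers of monocytes and granulocytes had a mean level of 4.59 to 5.63 in KO and of 3.52 to 4 in WT of run 1. Plac8, a myeloid gene that interferon is also known to induce, was the called member (1 of 2 tested) and was higher in KO at each time, by 3.52, 4.67 and 5.49. Among microglial markers, Cx3cr1, the fractalkine receptor, was lower in KO at each time, by -1.72, -3.17 and -3.47, and Aif1 was higher untreated by 1.29 (limma, adjusted p = 0.00233). Itgam at 6 h (-1.59) and Trem2 at 24 h (-2.56) were also lower. Of 9 microglial markers tested, 1 was thus lower untreated, 2 at 6 h and 2 at 24 h. Over all 7960 genes tested, 699, 433 and 1410 were called lower in KO at these times, and 637, 229 and 903 higher. The 2 of 9 at 24 h is near the share over all genes. Of the markers of astrocytes (7 tested), oligodendrocytes (4 tested) and neurons (2 tested) 0 passed in KO against WT at any time, and of 5 endothelial and fibroblast markers Cdh5 passed at 24 h at 0.96. The part of these markers in the ligand values was not tested. In such bulk samples, more RNA per cell and more cells that carry it cannot be told apart.

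In C61A microglia, Cxcl10 and Cxcl11 rose by 24 h. Cxcl10 was read at 9.31 and 7.44 untreated, at 13 and 10.15 after 6 h and at 13.1 and 12.94 after 24 h. The replicates lay far apart at 6 h and close together at 24 h, and the 24 h rise was 4.64 ± 1.06 (SE, limma, adjusted p = 0.0179). Cxcl11 was read at 5.67 and 3.93, then at 9.98 and 6.36, then at 9.96 and 8.77, a 24 h rise of 4.56 ± 1.07 (adjusted p = 0.0203). Cxcl9 was read at 3.32 and 3.34, then at 8.59 and 4.28, then at 7.11 and 6.27, and its 24 h change of 3.36 did not pass (adjusted p = 0.13), though it did with culture as a replicate block (adjusted p = 0.0434) and without the 3 doubted arrays (adjusted p = 0.00569). In the fit of all arrays 2 of 3 ligand genes rose where 5.46% of genes were called higher and the median gene changed by -0.119.

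Both C61A calls at 24 h rest on few arrays. Each was lost in 3 of the 4 fits that left out 1 of its arrays (adjusted p up to 0.126 for Cxcl10 and 0.133 for Cxcl11): without 24 h replicate 1, without 24 h replicate 2 and without untreated replicate 2. Both were lost when run 3 was fitted alone (adjusted p = 0.0903 and 0.0827). Among microglial markers C1qa and C1qb rose over the same 24 h by 0.58 and 0.84, while Csf1r, Cx3cr1 and Tmem119 fell by 1.65, 2.1 and 3.32 on the log2 scale, and the endothelial gene Cdh5 rose by 1.14. Of 9 microglial markers tested 2 thus rose and 3 fell, where 435 of 7960 genes were called higher and 289 lower. The part of these markers in the ligand values was not tested. Astrocyte markers stood at a mean of 5.39 to 8.87 on the C61A arrays, and 0 of 7 passed at 24 h.

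At 6 h the C61A changes were 3.1 for Cxcl9, 3.2 for Cxcl10 and 3.37 for Cxcl11, and none passed (limma, adjusted p = 0.831, 0.765 and 0.765), where 0.0503% of genes were called. With the 3 arrays left out, C61A 6 h replicate 2 among them, the changes were 5.26, 4.63 and 5.18 and all 3 passed (adjusted p = 0.00176, 0.000131 and 0.00931). The 6 h group is then 1 array, assumed to vary like the other groups. From 6 h to 24 h the values moved by 0.25 for Cxcl9, 1.44 for Cxcl10 and 1.19 for Cxcl11 (none passed, with 0.528% of genes called), and without the 3 arrays Cxcl9 and Cxcl11 turned to -1.9 and -0.62.

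No ligand gene differed between C61A and WT past the threshold at any time. Untreated, the differences were -1.9 for Cxcl9, -2.24 for Cxcl10 (95% interval -4.5 to 0.02) and -2.12 for Cxcl11 (limma, adjusted p = 1 for each, with 0.0126% of genes called). At 6 h they were -0.57, -0.8 and -0.64 (adjusted p = 0.998 for each, again with 0.0126% called). At 24 h they were 0.75 (95% interval -2.13 to 3.62), 1.51 (-0.75 to 3.77) and 1.21 (-1.08 to 3.51), with adjusted p-values of 0.924, 0.78 and 0.812 and 0.0251% of genes called. These intervals are wide, and at 24 h the one for Cxcl10 includes differences of over 10-fold. The untreated values turn on the WT arrays of run 3: Cxcl10 differed by -4.47 (adjusted p = 0.0264) without untreated WT replicate 2, which leaves the doubted array alone, and by 0 (adjusted p = 1) without the 3 doubted arrays. In that last fit Cxcl9 differed by 0.46 and Cxcl11 by -1.46 (adjusted p = 1 for both).

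The response of C61A minus that of WT was 1.33 for Cxcl9, 1.44 for Cxcl10 and 1.48 for Cxcl11 at 6 h, and 2.64, 3.74 and 3.33 at 24 h (limma, adjusted p = 1 for each at 6 h, and 0.815, 0.764 and 0.764 at 24 h). In both comparisons 0% of genes were called, with 26 and 497 genes at an unadjusted p under 0.05. With 1 array left out in turn the Cxcl10 value at 24 h ran from 1.51 to 5.98, and it passed in 1 of these fits, the one without untreated WT replicate 2 (adjusted p = 0.0366), which leaves the doubted WT array as the only untreated one. Without the 3 doubted arrays the 24 h values were 0.29, 1.51 and 2.67 (adjusted p = 1 for each).

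The KO difference and the C61A difference, each from WT of its own run, were set against each other directly. Untreated, the KO difference exceeded the C61A difference by 6.74 ± 1.9 for Cxcl9, 9.3 ± 1.5 for Cxcl10 and 9.06 ± 1.52 for Cxcl11 (SE, limma, adjusted p = 0.034, 0.00279 and 0.00319), and all 3 passed where 7.55% of genes were called higher. The untreated WT arrays of the 2 runs enter this value with opposite sign, and the doubted WT array of run 3 is one of them. With any 1 of the 8 arrays left out, Cxcl10 stayed between 7.06 and 11.53 and Cxcl11 between 7.92 and 10.2, both called each time, while Cxcl9 ran from 4.39 to 9.09 and lost its call in 6 of 8 fits. At 6 h the values were 0.58, 1.13 and 2.72 (adjusted p = 0.915, 0.738 and 0.367, with 0.817% called). At 24 h they were 0.19, 2.64 and 5.39 (adjusted p = 0.971, 0.337 and 0.066, with 3.1% called), and without the 3 arrays those of Cxcl10 and Cxcl11 passed (adjusted p = 0.0261 and 0.0256).

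**Figure D3:**
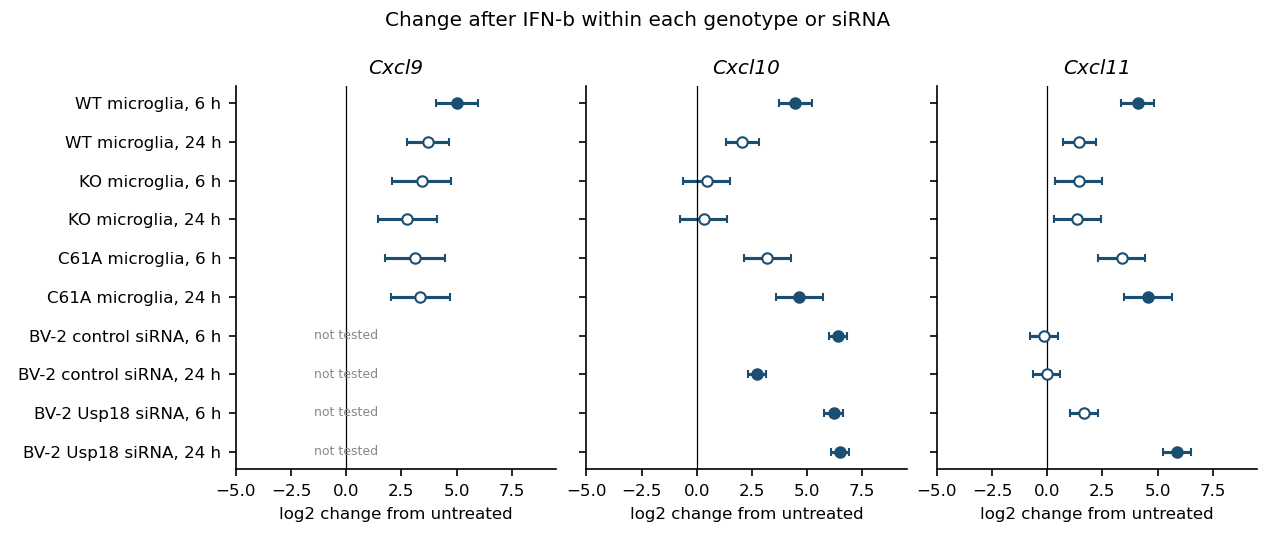
Log2 change from untreated after 6 h and 24 h of IFN-b within each genotype or siRNA, with standard error bars and filled points past an adjusted p of 0.05 (limma). WT values are the mean over both runs. Cxcl10 passed in BV-2 cells at both times with either siRNA, Cxcl11 there only at 24 h with Usp18 siRNA, and no ligand gene passed in KO.

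In BV-2 cells with control siRNA only Cxcl10 answered to IFN-b. It was read at 4.43 and 4.69 untreated, at 10.73 and 11.19 after 6 h and at 7.1 and 7.47 after 24 h, and the 3 times did not overlap. The rise was 6.4 ± 0.415 at 6 h (SE, limma, adjusted p = 0.000249) and 2.72 at 24 h (adjusted p = 0.026). The fall of -3.68 from 6 h to 24 h did not pass (adjusted p = 0.0598), where 0% of genes were called and 389 had an unadjusted p under 0.05. It passed with culture as a replicate block (adjusted p = 0.00233), whereas the 24 h rise lost its call with any 1 of its 4 arrays left out (adjusted p up to 0.357). Cxcl11 was read between 3.51 and 4.15 on all 6 control arrays, with changes of -0.16 at 6 h (95% interval -1.58 to 1.26), -0.03 at 24 h and 0.13 between these times. Cxcl9 was read between 2.91 and 3.72. So 1 of 2 tested ligand genes rose, where 0.991% of genes were called higher at 6 h and 0.503% at 24 h.

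With Usp18 siRNA the BV-2 cells kept Cxcl10 high to 24 h and gained Cxcl11. Cxcl10 was read at 5.31 and 6.7 untreated, at 11.99 and 12.42 after 6 h and at 12.2 and 12.8 after 24 h, a rise of 6.2 at 6 h and 6.49 at 24 h (limma, adjusted p = 0.000665 and 0.000219). Cxcl11 was read at 3.64 and 4.28, then at 4.45 and 6.83, then at 9.52 and 10.16. Both 24 h arrays lay above every earlier array, and the 24 h rise was 5.87 ± 0.631 (adjusted p = 0.00208). Its 6 h change of 1.68 did not pass (adjusted p = 0.151), and from 6 h to 24 h it rose by 4.2 (adjusted p = 0.0463), a call lost with no filter on low values and without 24 h replicate 2 (3.88, adjusted p = 0.146). Without the doubted 6 h array the 6 h change of Cxcl11 was 0.49 (adjusted p = 0.526) and its rise from 6 h to 24 h was 5.39 (adjusted p = 0.0026). Cxcl10 moved by 0.3 between those times (95% interval -0.64 to 1.23). The shares of genes called higher were 1.02% at 6 h, 6.62% at 24 h and 0.223% from 6 h to 24 h, and the median gene changed by -0.192 at 6 h.

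Set against control siRNA at 24 h, Usp18 siRNA left Cxcl10 higher by 5.22 ± 0.415 or 37.2-fold (SE, limma, adjusted p = 0.00101) and Cxcl11 higher by 5.96 ± 0.631 or 62.3-fold (adjusted p = 0.00401). Both tested genes passed where 3.07% of genes were called higher. Control Cxcl11 lay under the array medians, near the floor of the scale, so the size of its fold is uncertain. The Cxcl11 call was lost without control 24 h replicate 1 (5.69, adjusted p = 0.0686), and that of Cxcl10 was kept with each array left out in turn, at 4.92 to 5.52. Untreated, the differences were 1.44 for Cxcl10 (95% interval 0.51 to 2.38) and 0.06 for Cxcl11, and at 6 h they were 1.24 and 1.9, none of which passed after adjustment over all genes (adjusted p = 1, 1, 0.28 and 0.28). Without the doubted array the 6 h differences were 1.02 and 0.71 (adjusted p = 0.547 and 0.572). In these 2 comparisons limma called 0% of genes, with 176 and 1007 at an unadjusted p under 0.05. The siRNA response minus the control response was -0.2 for Cxcl10 and 1.84 for Cxcl11 at 6 h (adjusted p = 0.973 and 0.952, 0% called, 244 at an unadjusted p under 0.05). At 24 h it was 3.77 and 5.9 (adjusted p = 0.126 for both, 0.0279% called), and both passed with culture as a replicate block (adjusted p = 0.0077 and 0.00998).

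Cxcl9 in BV-2 cells with Usp18 siRNA was read at 2.77 and 3.19 untreated, at 4.54 and 6.64 after 6 h and at 5.58 and 5.21 after 24 h. All 4 treated arrays lay above the 6 control siRNA arrays, but only 1 lay above the median of its array, so that the gene did not enter the test. In a fit with no filter on low values, its 24 h rise was 2.41 ± 0.53 (limma, adjusted p = 0.0307), and its difference from control siRNA at 24 h was 2.2 (adjusted p = 0.0694). The 6.64 belongs to the array on which C1qa was read at 9.96.

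The 2 probe sets of Cxcl11 moved together but on different scales. Probe set 1419697_at, with the higher mean, gave the values above. Probe set 1419698_at lay above the array median on 8 microglial arrays and on 0 BV-2 arrays. In KO it read 7.56 and 4 untreated, 9.46 and 7.77 at 6 h and 8.68 and 7.77 at 24 h, against 3.48 to 4.88 on the 6 WT arrays of run 1. When each probe set was tested on its own, the second one differed between KO and WT by 3.95 at 6 h and 4.5 at 24 h (limma, adjusted p = 0.0429 and 0.00902) but not past the threshold untreated (2.24, adjusted p = 0.185). Its 6 h rise in WT was 1.8 (adjusted p = 0.135). The probe sets correlated at 0.82 over the 36 arrays, a description of arrays that share groups.

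**Figure D4:**
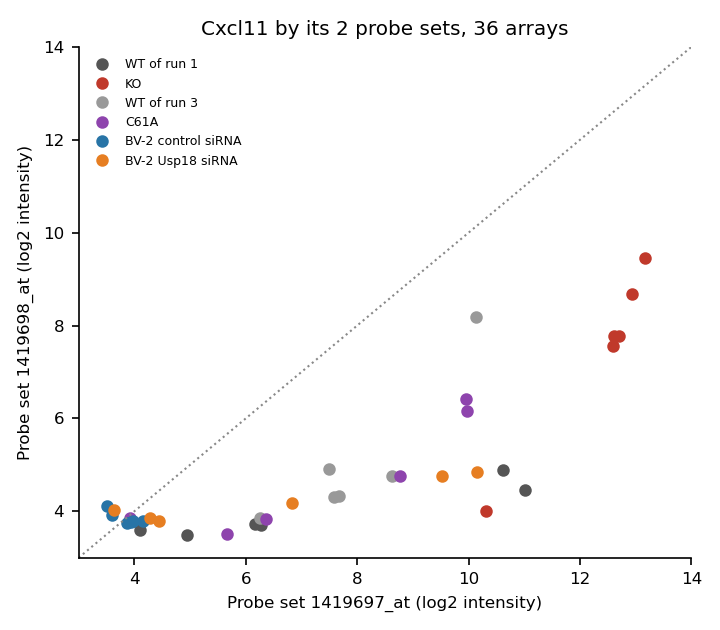
Log2 intensity of the second Cxcl11 probe set, 1419698_at, against the first, 1419697_at, on 36 arrays coloured by genotype or siRNA and run. The dotted line marks equal values. The KO arrays reach furthest on both probe sets, up to 13.16 and 9.46, and 1 untreated KO array stands at 10.32 on the first and 4 on the second.

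Ordered by group mean, Cxcl9 was highest in KO at 6 h (11.34), followed by WT of run 1 at 6 h (11.33), and lowest in untreated BV-2 cells with control siRNA (2.96). For Cxcl10 the order ran from C61A at 24 h (13.02), KO at 6 h (12.95) and KO at 24 h (12.82) down to untreated BV-2 control (4.56). For Cxcl11 the KO groups took the first 3 places at 12.88 (6 h), 12.82 (24 h) and 11.46 (untreated), and BV-2 control at 6 h (3.74) the last. Most neighbours in these orders overlapped on their arrays: 14 of 17 neighbouring pairs for Cxcl9, 12 of 17 for Cxcl10 and 14 of 17 for Cxcl11. The pairs of Cxcl9 that did not overlap included KO at 24 h over WT of run 1 at 24 h, and those of Cxcl11 included untreated KO lying apart from KO at 24 h.

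The likeness of the ligand genes to each other was measured by Pearson's r. Over the 24 microglial arrays Cxcl10 and Cxcl11 correlated at 0.834, Cxcl9 and Cxcl11 at 0.772 and Cxcl9 and Cxcl10 at 0.653, and over the 12 BV-2 arrays the same pairs gave 0.642, 0.791 and 0.814. These correlations describe arrays that share groups and runs. Among all tested microglial genes, the 5 most like Cxcl10 were Gbp7 (0.968), Ccl12 (0.965), Gbp2 (0.963), Ccl2 (0.958) and Gch1 (0.958), which are guanylate-binding proteins, CC chemokines and the first enzyme of tetrahydrobiopterin synthesis. The 5 most like Cxcl9 were Nectin4 (0.935), Ogfr (0.932), Ccl8 (0.932), Adar (0.925) and Prpf38a (0.924). The 5 most like Cxcl11 were Rnf135 (0.944), Ddx4 (0.942), Il15ra (0.936), Carhsp1 (0.931) and Phc2 (0.927). Each value is Pearson's r over the same 24 arrays.

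The receptor and the proteins that remove the ligands were also read. Cxcr3, the receptor itself, lay at 4.4 to 8.38 over all arrays, Ackr3, which takes up Cxcl11, at 2.03 to 7.61, and Dpp4, the protease that trims the ligands, at 2.78 to 3.58. Of these, 2 were tested in microglia and 1 in BV-2, and 0 passed in WT, KO against WT, C61A at 24 h or the siRNA comparisons. Among the cytokines that induce the ligands, Ifng was read at 2.36 to 3.01 on all 36 arrays. Ifnb1 lay at 4.68 to 6.27 in KO and at 3.85 to 4.32 in WT of run 1, and was higher in KO by 1.07, 1.92 and 1.22 at 0 h, 6 h and 24 h (limma, adjusted p = 0.0115, 0.00209 and 0.00277). The part of Ifnb1 in the ligand values was not tested. Tnf rose in WT at 6 h by 1.65 and was higher in KO untreated by 1.36 and at 24 h by 1.31.

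The list of 19 genes for the interferon signal to these promoters also holds Usp18 and Socs1, which damp that signal, and 17 were tested. In WT at 6 h 7 rose and 0 fell, with a median change over the list of 0.91: Irf7 (4.17), Usp18 (4.2), Stat2 (3.03), Irf1 (1.8), Jak2 (1.46), Irf9 (0.96) and Tyk2 (0.94). In untreated KO against WT 7 were higher and 1 lower: Irf7 (6.47), Stat2 (4.38), Socs1 (3.56), Irf1 (2.72), Tyk2 (1.49), Jak2 (1.48) and Irf9 (1.36) on the one side, and Ifngr1, a chain of the interferon-gamma receptor, at -1.35 on the other. The list's median difference was 0.04. At 24 h in KO 5 were higher and 3 lower, Socs1 (4.65) leading the first and Ifngr1 (-1.89) and Ifnar2 (-0.7) standing beside Usp18, the knocked-out gene, among the second. Over all 7960 genes tested, 1410 were called lower in KO at 24 h and 699 in untreated KO. The 3 of 17 and 1 of 17 called lower on the list are near those shares. In C61A at 24 h 8 rose and 0 fell. In BV-2 with Usp18 siRNA at 24 h 8 rose and 0 fell, and 3 were higher than with control siRNA: Irf1 (2.75), Jak2 (2.17) and Tyk2 (1.26), with 0 lower. Over all genes tested, 7.59% were called higher in WT at 6 h, 8% in untreated KO, 11.3% in KO at 24 h, 5.46% in C61A at 24 h, 6.62% in BV-2 with Usp18 siRNA at 24 h and 3.07% against control siRNA.

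Of CXC chemokines that use other receptors, 12 were listed, and 8 were tested in microglia and 4 in BV-2. In WT at 6 h 2 of 8 were called higher, where 7.59% of all genes tested were. In untreated KO 2 of 8 were higher, where 8% of all genes were. In WT at 24 h 1 of 8 was higher, where 161 of 7960 genes were. In KO at 6 h 1 of 8 was lower, where 433 of 7960 genes were. Cxcl13, the B cell attractant, rose in WT by 3.2 at 6 h and 3.73 at 24 h and was higher in untreated KO by 4.49 (limma, adjusted p = 0.00742, 0.00883 and 0.00652). Cxcl16, the ligand of CXCR6, rose in WT at 6 h by 0.63, was higher in untreated KO by 0.73 and was lower in KO at 6 h by -0.71. The rest passed in none of the WT, KO, C61A 24 h and BV-2 comparisons run on the list, and the median change of the list at 6 h in WT was 0.02. Cxcr4 was the called receptor of another CXC chemokine, lower with Usp18 siRNA than with control siRNA at 24 h by -1.27.

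Most genes on either side of the ligand genes did not pass, as was so for most genes tested. Of 10 neighbours, 8 were tested in microglia and 6 in BV-2. Sdad1, a ribosome biogenesis gene next to Cxcl9, was higher in untreated KO by 0.86 (limma, adjusted p = 0.0432), and Nup54, a nuclear pore gene beyond Cxcl11, fell in BV-2 with Usp18 siRNA at 24 h by 0.77 on the log2 scale (adjusted p = 0.0305). Those were the 2 calls over the 10 comparisons run on the list, and its median change was 0.12 in WT at 6 h and -0.17 in untreated KO. In untreated KO 1 of 8 neighbours was higher, where 8% of all genes were. In BV-2 with Usp18 siRNA at 24 h 1 of 6 was lower, where 662 of 7163 genes were. Lists this short cannot be told apart from those shares. Art3 spans both Cxcl10 and Cxcl11 on the chromosome, from 92331799 to 92414628. It was not tested for its low values, which reached 5.41 in KO and 5.35 in C61A against 2.97 to 3.87 in WT of run 1 and 2.97 to 3.71 in WT of run 3.

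**Figure D5:**
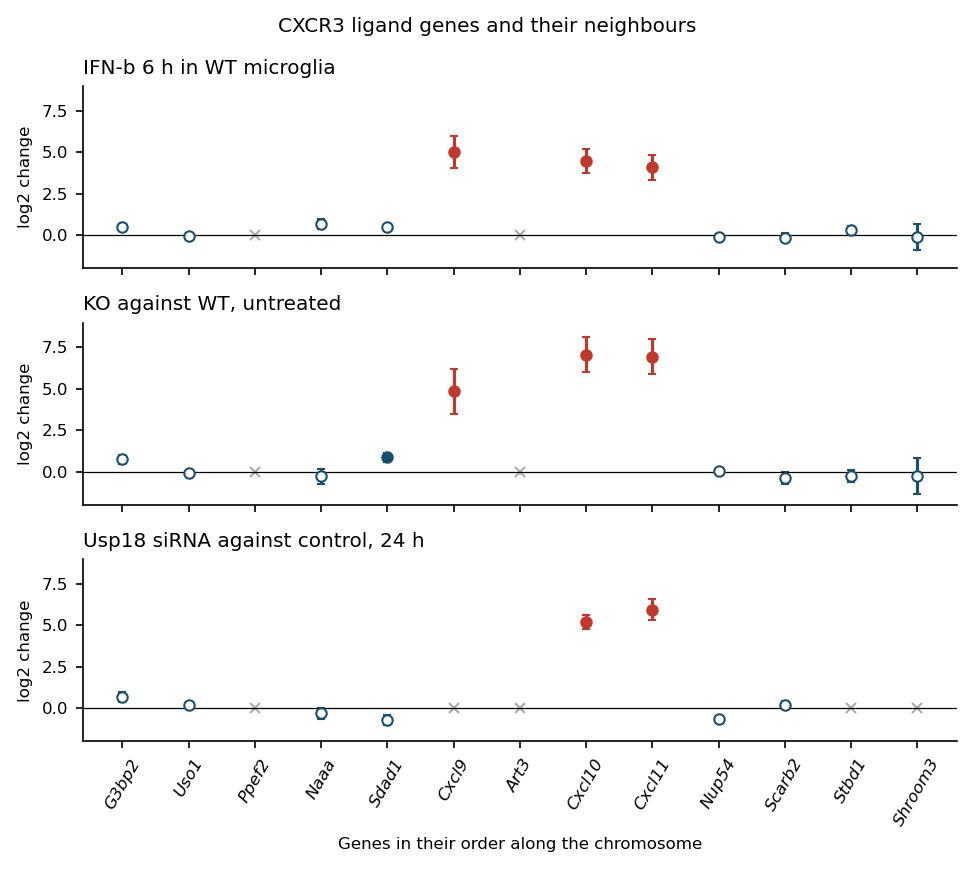
Log2 change of the 3 ligand genes (red) and 10 neighbours (blue) in their order along the chromosome, in 3 comparisons, with standard error bars, filled points past an adjusted p of 0.05 (limma) and grey crosses for genes not tested. The ligand genes stand at 4.09 to 7.06 in the 2 microglial panels, and the neighbours within 1 of 0.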

How the data were processed

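Total RNA was labelled by a 3' one-cycle amplification and read on Affymetrix arrays, per the labels' protocols. The tool affy is named in the submitters' processing notes, with no version, and how probes were summarised and normalized is not given in the sources used here. What was deposited was taken as log2 intensities from their range, since the log base is not stated, and was used unchanged. Array spread comes from 2 labelled biological replicates a group, and this number limits the precision. No detection calls were used.

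Of 22690 probe sets, 20393 were paired with 1 gene by the platform table, 691 with several genes or none and 1606 were not listed, and no symbol changed against RefSeq. Where a gene had several kept probe sets, the one with the highest mean was used. Comparisons used limma 3.58.1 in R 4.3.3 (cell means, empirical Bayes, Benjamini-Hochberg), in 1 fit of 24 microglial arrays with genotype, time and run as cells (12 residual degrees of freedom) and 1 of 12 BV-2 arrays (6). The WT response is the mean of both runs. The fit was checked on simulated data. Figures were drawn with matplotlib 3.10.9.

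Deviations of same-numbered WT replicates from their group means correlated across times at 0.434 to 0.672 in run 1 and 0.296 to 0.52 in run 3, so WT numbers were taken as cultures. In KO (0.685 to 0.811), C61A (0.538 to 0.655) and BV-2 (0.31 to 0.759) the values were positive too. With 2 replicates a group they only hint at this, in WT as well, and the labels do not say that the numbers mark cultures. The blocked fits assume it in every group, and calls that passed only in them rest on it. Across genotypes the values were -0.46 to -0.044 in run 3 and -0.112 to -0.086 in run 1, and across siRNAs 0.322 to 0.506.

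The ligand genes and the gene lists were chosen with earlier results of these data known. The genes named are the ligand genes, the members of their fixed pathway, neighbour and marker lists, and the 5 genes of most like pattern for each. The arrays that stand apart were also known from earlier results. Promoters are RefSeq windows of GRCm38.p6, and 2 of 3 ligand genes matched. In all 14 alternatives were tried.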

Additional observations from a re-analysis of the deposited data

Results flagged for a closer look

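Among the 4 untreated WT arrays Cxcl9 was read at 7.58 on replicate 1 of run 3, while the other 3 lay between 2.87 and 3.14. The gap to the next array met an outlier rule set at about 95% for a single group of 4. That rule does not measure chance here. The 4 arrays come from runs that were fitted apart, the other 3 lay low on the scale, and the array was already known to stand apart. The same array read Usp18 at 12.97. The Cxcl10 change after 6 h of IFN-b differed between KO and WT by -6.72 (limma, adjusted p = 0.046), a test of the difference between genotypes. Untreated KO already read 12.63 and 12.37, and no array of the study read Cxcl10 above 13.1. The untreated KO difference from WT exceeded the untreated C61A difference by 6.74 for Cxcl9, 9.3 for Cxcl10 and 9.06 for Cxcl11 (limma, adjusted p = 0.034, 0.00279 and 0.00319), also a test of the difference itself. The flagged WT array is one of the WT arrays of run 3 behind those 3 values.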

How the results depend on the processing

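Calls are counted here as ligand genes past the threshold (limma, adjusted p under 0.05). Without a run term the count went from 3 to 0 for WT at 6 h, from 3 to 1 for untreated KO against WT and for the untreated KO minus C61A difference, from 2 to 1 for KO against WT at 24 h and from 2 to 0 for C61A at 24 h. Run 3 alone gave 0 for WT at 6 h and 0 for C61A at 24 h. At 24 h in C61A, an additive run term and the mean of the kept probe sets each gave 1. For WT at 24 h (0 calls) quantile normalization, median centring and the replicate block by number gave 1 each, and run 1 alone, both culture blocks and leaving out the 3 doubted arrays gave 2 each. From 6 h to 24 h in WT (0) the 3 replicate blocks (by number, and by culture as a fixed or random term), run 1 alone and leaving out the doubted arrays gave 2 each, and for KO at 6 h (0) the same fits gave 1 each. Leaving out the doubted arrays also gave 1 for KO at 24 h, 3 for C61A at 6 h, 3 for the KO minus WT response at 6 h and 1 at 24 h, 2 for the KO minus C61A difference at 24 h, and 1 for the siRNA minus control response at 24 h. For the KO minus WT response at 6 h (1) no filter, single probe sets, median centring, an additive run term and no run term gave 0, both culture blocks gave 2 and run 1 alone 3, and at 24 h run 1 alone gave 1. The KO minus C61A difference gained 1 at 6 h with an additive or no run term and 1 at 24 h with the number block, and the run difference at 6 h had 2 with the number block and 3 with the culture blocks. In BV-2 cells the 3 replicate blocks raised the control fall from 6 h to 24 h from 0 to 1, as did quantile normalization and a trended robust fit, raised Usp18 siRNA at 6 h from 1 to 2 and the response difference at 24 h from 0 to 2. The siRNA rise from 6 h to 24 h went from 1 to 0 with no filter, single probe sets and quantile normalization. The paired fits ended none of the calls they could test.

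Every change of sign was of a value not called in either fit. Quantile normalization took Cxcl9 in KO against WT at 6 h to 0 and Cxcl11 in control BV-2 at 24 h to 0.01, and median centring took Cxcl11 in untreated siRNA against control to 0. The mean of the probe sets gave 0.96 for the Cxcl11 KO minus WT response at 24 h. In C61A against WT, Cxcl9 turned to 0.18 untreated and -0.16 at 24 h with an additive run term, and without a run term Cxcl9 turned to -1.16 at 24 h and Cxcl10 to 0.35 untreated. An additive and no run term both gave -1.91, -1.27 and -0.72 for the C61A minus WT response of Cxcl9, Cxcl10 and Cxcl11 at 6 h and -0.34 for Cxcl9 at 24 h. With no run term Cxcl10 turned to -0.2 in the KO minus C61A difference at 24 h. Leaving out the doubted arrays gave -1.9 (Cxcl9) and -0.62 (Cxcl11) from 6 h to 24 h in C61A, 0.46 for Cxcl9 in untreated C61A against WT and 1.59, 0.63 and 1.17 for the 3 genes at 6 h, -1.58 (Cxcl9) and -0.29 (Cxcl10) for KO minus C61A at 6 h, and -0.2 for the Cxcl11 run difference at 24 h.

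With each array of the compared groups left out in turn, which leaves 1 array in a group, assumed to vary like the others, the counts ran from 0 to 2 for WT at 24 h, C61A at 24 h, the run difference at 6 h and the siRNA response difference at 24 h, from 0 to 1 for WT and for Usp18 siRNA from 6 h to 24 h, untreated C61A against WT, the C61A response difference at 24 h and siRNA against control at 6 h, and from 1 to 2 for KO against WT at 24 h, Usp18 siRNA at 6 h and siRNA against control at 24 h. They were 0 throughout for the KO response difference at 6 h and for control BV-2 at 24 h. The values that changed sign ran for Cxcl9 from -1.46 to 0.18 (KO, 6 h to 24 h), -1.9 to 2.41 (C61A, 6 h to 24 h), -0.8 to 0.83 (KO against WT, 6 h), -4.25 to 0.46 and -2.72 to 1.59 (C61A against WT, untreated and 6 h), -1.02 to 3.68 (C61A response difference, 6 h), and -1.58 to 2.74 and -0.25 to 0.62 (KO minus C61A, 6 h and 24 h). For Cxcl10 they ran from -2.22 to 0.63 (C61A against WT, 6 h), -0.8 to 3.67 (C61A response difference, 6 h), -0.29 to 2.56 (KO minus C61A, 6 h), 0 to 0.6 (Usp18 siRNA, 6 h to 24 h) and -0.9 to 0.49 (siRNA response difference, 6 h). For Cxcl11 they ran from -0.34 to 0.22 (KO, 6 h to 24 h), -0.62 to 3 (C61A, 6 h to 24 h), -2.45 to 1.17 (C61A against WT, 6 h), -1.48 to 0.81 (KO response difference, 24 h), -0.33 to 3.29 (C61A response difference, 6 h), -0.2 to 1.13 (run difference, 24 h), -0.4 to 0.08, -0.3 to 0.25 and -0.14 to 0.41 (control BV-2 at 6 h, at 24 h and between them) and -0.26 to 0.38 (untreated siRNA against control).

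The number of all genes called also moved: for WT at 6 h from 1226 to 619 with an additive run term, 35 without one, 0 in run 3 alone, 1851 in run 1 alone and 2632 with culture blocks, for untreated KO against WT from 1336 to 573 and 245 with an additive and no run term, for C61A at 24 h from 724 to 43 with no run term and 1842 with culture blocks, and for Usp18 siRNA against control at 24 h from 383 to 161 with no filter and 1456 with the number block. Low levels limit Cxcl9 and Cxcl11 in BV-2 cells, where most arrays read them under the array median. The cause of these changes was not tested.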
